A study of Mus musculus with 4 samples.

Results

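The interferon regulatory factor genes Irf1, Irf2, Irf3, Irf4, Irf5, Irf7, Irf8 and Irf9 were examined in cultured astrocytes of newborn mice. These 8 genes were matched by their exact symbol among the 25393 genes of the deposited table, and all 8 were found. RNA sequencing was performed on total RNA of astrocytes from cortex and hippocampus of C57BL/6 mice at postnatal day 1, all untreated. The libraries were 2 from wild type (WT) mice and 2 labelled Tet1 KO, with the genotype tet1-/-, which the study describes as a constitutive knockout. Astrocytes of 2 mice were pooled per isolation, grown for about 7 days on poly-D-lysine (PDL), shaken at 260 rpm to purify them and kept for a further 24 h. The question behind the comparison is how gene expression of astrocytes differs when Tet1, an enzyme that oxidises methylated cytosine, is missing. The study speaks of biological repeats, more per genotype than the libraries analysed here, but nothing in the labels says that the 2 replicates of a genotype came from separate isolations, so p-values measure the spread between these libraries, which may be technical.

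The IRF proteins share a DNA-binding domain that reads GAAA repeats, the core of the interferon-stimulated response element (ISRE). Irf3 and Irf7 are phosphorylated when a cell detects foreign nucleic acid and then switch on the type I interferon genes. Secreted interferon acts on its receptor, and Irf9 joins STAT proteins to form ISGF3, which drives the interferon-stimulated genes, with Irf7 among them. Irf1 is an activator induced through STAT dimers, which bind the gamma-activated sequence (GAS), and Irf2 competes with Irf1 for the same sites. In the brain Irf8 and Irf5 are known from microglia, and Irf4 is best known from lymphocytes and other blood cells.

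Reads on genes ranged from 18749610 to 22673555 per library. Tet1 itself was not lower under the KO label, with normalized counts of 266 and 121 in WT against 173 and 463 (log2 fold change 0.66, SE 0.65, limma adjusted p = 0.691). The study reports that Tet1 mRNA was nearly undetectable in its KO astrocytes. It also reports less hydroxymethylated cytosine, the product of Tet1, by dot blot. A count over the whole gene does not show which part of the transcript the reads came from. The label is therefore kept as a label throughout. Xist, the RNA of the inactive X chromosome, had 8.54 and 0.92 normalized counts in WT against 2896 and 13367, and 4 Y-linked genes summed to 3765 and 1909 against 0 and 830, so the sex of the pooled pups and the genotype label cannot be told apart. Of 10 astrocyte genes, 5 were lower without overlap and 1 was higher in the libraries labelled KO, and their summed level was 157902 and 157126 in WT against 259251 and 46837, a difference between the last pair made mostly by Gfap. Of 20 microglial genes, 19 were lower without overlap, and their sum was 3114 and 5985 in WT against 1151 and 708. Over all 22094 genes tested, 25.4% were lower and 22.5% higher without overlap. The lymphocyte genes Cd79a and Cd79b had 11.0 normalized counts or fewer. Of 6 tested neuronal genes, 4 were higher and 0 lower without overlap, with a median log2 fold change of 1.73. Among those higher, Dcx had 7.49 normalized counts or fewer in every library, and Rbfox3 had 1.80 in KO replicate 2. Map2 and Stmn2 overlapped. The sum of all 7 listed neuronal genes was 4334 and 3817 in WT against 4797 and 4618, or 116% of WT. Without overlap, 1 of 8 oligodendrocyte-lineage genes was higher and 2 were lower. The same counts were 1 and 2 of 5 meningeal fibroblast genes, and 1 and 1 of 4 endothelial genes. In bulk RNA, fewer cells of a type and less RNA per cell cannot be told apart.

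Promoters of all 8 members were found in RefSeq (GRCm38.p6), in 11 windows reaching from 250 bases before a start site to 50 after it. They were searched on both strands for the ISRE core, GAAA and GAAA with 2 bases of any kind between them, and for the GAS core TTCNNNGAA, which reads the same on both strands and cannot hold the ISRE core. GAS occurred in 3 of the 8 members, Irf1, Irf2 and Irf8, and in 9.55% of the 27025 genes with a window. ISRE occurred in 1 member, Irf2, and in 3.99% of all genes. The stretches from 250 to 71 bases before the start are shown for the 3 genes with a match, with the matches in capitals, and for Irf7, the member with the lowest fold change, which had neither. They were read 5′ to 3′ from chr11:53769764-53769943 (Irf1, plus strand), chr8:120736108-120736287 (Irf8, plus strand), chr8:46739495-46739674 (Irf2, plus strand) and chr7:141266495-141266674 (Irf7, minus strand).
Irf1 promoter: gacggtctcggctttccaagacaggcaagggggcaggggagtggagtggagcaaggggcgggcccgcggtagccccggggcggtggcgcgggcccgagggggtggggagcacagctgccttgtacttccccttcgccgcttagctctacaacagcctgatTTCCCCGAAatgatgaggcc
Irf8 promoter: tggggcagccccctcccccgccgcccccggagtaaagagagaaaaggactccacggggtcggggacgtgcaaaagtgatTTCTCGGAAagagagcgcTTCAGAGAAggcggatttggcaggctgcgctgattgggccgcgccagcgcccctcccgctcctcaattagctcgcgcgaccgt
Irf2 promoter: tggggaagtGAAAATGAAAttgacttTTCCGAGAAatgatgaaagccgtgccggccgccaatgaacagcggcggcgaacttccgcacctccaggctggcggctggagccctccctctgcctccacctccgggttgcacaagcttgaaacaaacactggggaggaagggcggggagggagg
Irf7 promoter: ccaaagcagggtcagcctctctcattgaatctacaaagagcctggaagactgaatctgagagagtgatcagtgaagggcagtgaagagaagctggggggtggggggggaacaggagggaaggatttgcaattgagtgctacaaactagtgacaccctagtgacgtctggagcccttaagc
In Irf1 the GAS match TTCCCCGAA lay 90 to 82 bases before the start. In Irf8 the matches TTCTCGGAA and TTCAGAGAA lay 171 to 163 and 153 to 145 bases before it. In Irf2 the ISRE match GAAAATGAAA lay 241 to 232 bases before the start, followed by the GAS match TTCCGAGAA at 224 to 216. Such a match is a description of letters, and its absence in the windows of Irf7 and Irf9 says only that these letters are not there.

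CpG sites, the dinucleotides that carry the methylation on which Tet1 acts, differed in number between the promoter windows of the members. The window of Irf7 held 7, which is the median of all 32851 windows (quartiles 3 and 20). Irf1, with 32 and 43 in its 2 windows, Irf5, with 35, and Irf8, with 38 and 8, had at least 1 window above the upper quartile. Irf2 held 19, Irf3 18, Irf4 11, and the 2 windows of Irf9 held 9 and 1. Irf2 and Irf3, the members whose levels overlapped between the groups, thus lay between the others. No methylation values were analysed here.

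Of the 8 members, 6 were below both WT libraries in each library labelled KO, against 25.4% of the 22094 genes tested. These were Irf7, Irf9, Irf1, Irf8, Irf5 and Irf4. Irf2 and Irf3 overlapped between the groups, and no member was above WT without overlap, which 22.5% of all genes were. The median log2 fold change of the 8 was -2.42, or -1.73 with Irf4 at the bound given further on, and that of all tested genes was -0.07. By limma 0 members had an adjusted p under 0.05, which was also the case for all genes (background 0%), and by edgeR 0 as well (background 0%). At an unadjusted p under 0.05 limma counted 6 members, all lower (background 13.7% in either direction and 9.18% lower), and edgeR 6 (background 12.4%). The limma count was 4 without WT replicate 1, where 5.14% of all genes passed. It was 2, Irf7 and Irf4, without WT replicate 2, where 6.25% did. DESeq2 called 5 members lower at an adjusted p under 0.05, Irf7, Irf8, Irf5, Irf9 and Irf1, against 6.26% of 17382 genes in either direction and 4.62% lower, and it gave no adjusted p for Irf4. For a single gene, the exact permutation test of 2 against 2 libraries cannot go below a two-sided p of 0.33.

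**Figure D1:**
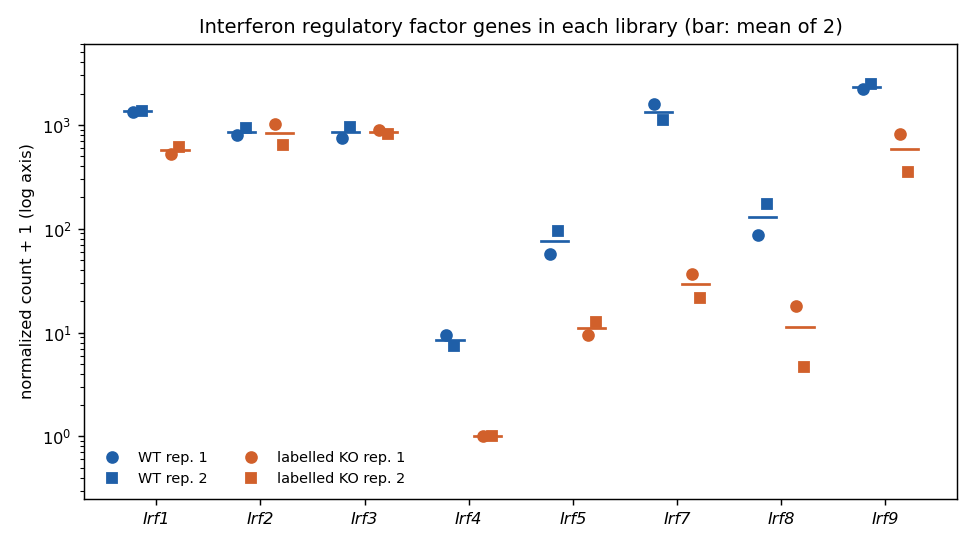
Normalized counts plus 1 (log axis) of the 8 genes in each of the 4 libraries, with circles for replicate 1, squares for replicate 2 and a bar at the mean of the 2. The groups overlap for Irf2 and Irf3, and the libraries labelled KO lie below WT for the other 6 genes, furthest for Irf7.

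Among the members that amplify the interferon response, Irf7 had the lowest fold change. Irf7 (ENSMUSG00000025498, mm10 chromosome 7, 141262706 to 141266481, minus strand) had 1576 and 1103 normalized counts in WT, from 1477 and 1200 reads. In the libraries labelled KO it had 35.3 and 20.7, from 33 and 23 reads. Both WT libraries were thus far above both others, and the WT mean was 47.8-fold higher (1340 ± 334 against 28.0 ± 10.3, SD, n = 2). The log2 fold change was -5.55 (SE 0.46, 95% interval -6.70 to -4.41). Its limma adjusted p of 0.0777 was the lowest any gene reached, shared by 30 genes, and DESeq2 gave an adjusted p of 2.46e-21. Among 1148 tested genes that the table assigns to a transcription factor family, Irf7 ranked 2 from the lowest fold change. Phrf1, which overlaps Irf7 on the opposite strand, had 1201 and 1626 normalized counts in WT against 1646 and 1821 in the libraries labelled KO.

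Irf9, the DNA-binding subunit of ISGF3, was 3.98-fold lower in the mean of the libraries labelled KO. Irf9 (ENSMUSG00000002325, chromosome 14, 55603571 to 55610030, plus strand) had 2211 and 2463 normalized counts in WT against 823 and 352. The groups did not overlap, although the gap between the replicates was wider under the KO label than in WT. The log2 fold change was -2.11 (SE 0.46, limma adjusted p = 0.197, DESeq2 adjusted p = 0.0107), and it was -1.50 without KO replicate 2 and -2.72 without KO replicate 1. Rnf31, which overlaps Irf9 on the same strand, had 1047 and 989 normalized counts in WT against 546 and 644 (log2 fold change -0.78, SE 0.29, limma adjusted p = 0.353).

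Irf1, the activator that works downstream of interferon-gamma, had the smallest difference of the 6 genes without overlap and the closest WT replicates. Irf1 (ENSMUSG00000018899, chromosome 11, 53770014 to 53778374, plus strand) had 1331 and 1354 normalized counts in WT against 520 and 609 under the KO label, whose mean was 42.1% of that of WT. The log2 fold change was -1.25 (SE 0.29, 95% interval -1.97 to -0.53, limma adjusted p = 0.211), and DESeq2 gave an adjusted p of 0.0477, close to its threshold. Gm17334, on the opposite strand within Irf1, had at most 11.7 normalized counts.

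Irf2, which competes with Irf1 for its sites, did not follow it. Irf2 (ENSMUSG00000031627, chromosome 8, 46739732 to 46847458, plus strand) had 794 and 924 normalized counts in WT against 1021 and 633. The highest and the lowest of the 4 values were both from the libraries labelled KO. The log2 fold change was -0.09 (SE 0.36, limma adjusted p = 0.934), with a 95% interval of -0.99 to 0.80. This interval does not hold the fitted fold change of Irf1, but the difference between the 2 genes was not tested. Of the 3 genes annotated on the opposite strand within Irf2, none had more than 6.40 normalized counts in a library.

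Irf3, the constitutively made sensor-activated factor that acts beside Irf7, also overlapped between the groups. Irf3 (ENSMUSG00000003184, chromosome 7, 44997648 to 45002848, plus strand) had 751 and 944 normalized counts in WT against 892 and 821. The log2 fold change was 0.02 (SE 0.30, limma adjusted p = 0.983), with a 95% interval of -0.73 to 0.78, and it turned to the other sign under several scalings (-0.03 with scaling to equal sums). Bcl2l12, on the opposite strand, had 127 and 139 normalized counts in WT against 116 and 171.

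**Figure D2:**
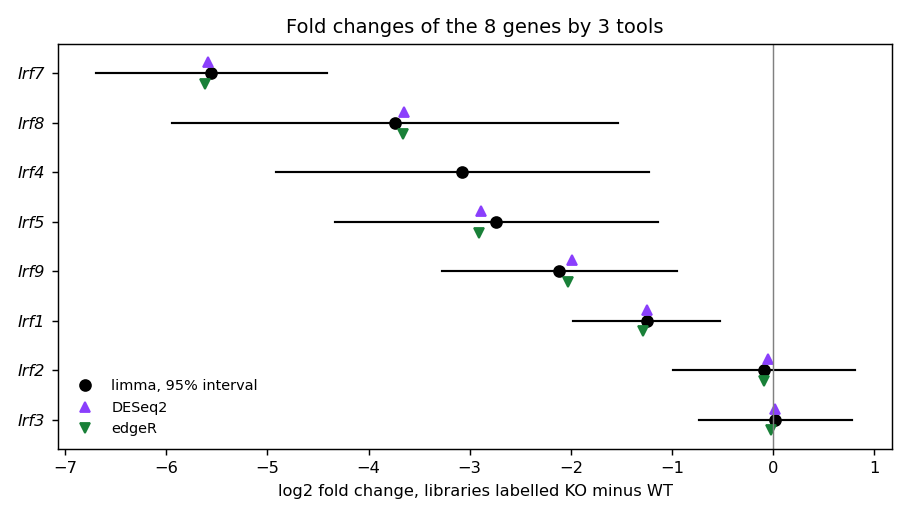
Log2 fold change of each gene, libraries labelled KO minus WT, from limma with its 95% interval (black), DESeq2 (triangles up) and edgeR (triangles down). The limma interval of Irf7 ends at -4.41, those of Irf2 and Irf3 hold 0, and for Irf4 only the limma value is drawn because its fold change rests on no reads in the libraries labelled KO.

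Irf8 and Irf5, the members known from microglia and other myeloid cells, had few reads in WT and fewer in the libraries labelled KO. Irf8 (ENSMUSG00000041515, chromosome 8, 120736358 to 120756694, plus strand) had 85.4 and 171 normalized counts in WT, from 80 and 186 reads, against 17.1 and 3.61, from 16 and 4 reads. The WT mean was 12.4-fold higher, with a log2 fold change of -3.74 (SE 0.88, limma adjusted p = 0.216, DESeq2 adjusted p = 0.00201). The value was -2.75 without KO replicate 2 and -4.73 without KO replicate 1. Gm20388, an annotated gene that overlaps Irf8 on the same strand, was not analysed here.

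Irf5 (ENSMUSG00000029771, chromosome 6, 29526625 to 29541871, plus strand) had 55.5 and 94.7 normalized counts in WT, from 52 and 103 reads, against 8.56 and 11.7, from 8 and 13 reads. The WT mean was 7.41-fold higher, with a log2 fold change of -2.74 (SE 0.64, limma adjusted p = 0.214, DESeq2 adjusted p = 0.0089). Tnpo3, on the opposite strand, had 1342 and 1413 normalized counts in WT against 1815 and 2074. The counting is not stated to use strand, and reads of overlapping genes cannot be told apart.

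Microglial genes were lower in the same libraries as Irf8 and Irf5. Between the 2 WT libraries, replicate 2 had 2.0 times the Irf8 and 1.71 times the Irf5 of replicate 1, and 1.92 times the summed level of the 20 microglial genes. The same ratio was 0.70 for Irf7, 0.754 for Irf4, 1.02 for Irf1, 1.11 for Irf9, 1.16 for Irf2 and 1.26 for Irf3. Between the libraries labelled KO, replicate 2 had 0.211 times the Irf8 and 0.615 times the microglial sum of replicate 1, but 1.37 times the Irf5. There Irf7 had 0.587 times, Irf9 0.428 times, Irf2 0.62 times, Irf3 0.921 times and Irf1 1.17 times the level of replicate 1. On average the libraries labelled KO kept 20.4% of the microglial sum of WT, 8.09% of Irf8 and 13.5% of Irf5. Of the defining microglial genes P2ry12 had 6.40 and 4.60 normalized counts in WT against 0 and 0.90, near the limit of detection in every library. Tmem119, the 1 gene of the 20 that overlapped, had 2.13 and 38.6 in WT against 8.56 and 1.80. The part of microglia in the results for Irf8, Irf5 and Irf7 was not tested. Between the libraries labelled KO, the sum of the 10 astrocyte genes in replicate 2 had 0.181 times the level of replicate 1. Without Gfap, an alternative chosen after seeing the data, it had 0.437 times that level. The part of the astrocyte genes in the values of Irf9 was not tested either.

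**Figure D3:**
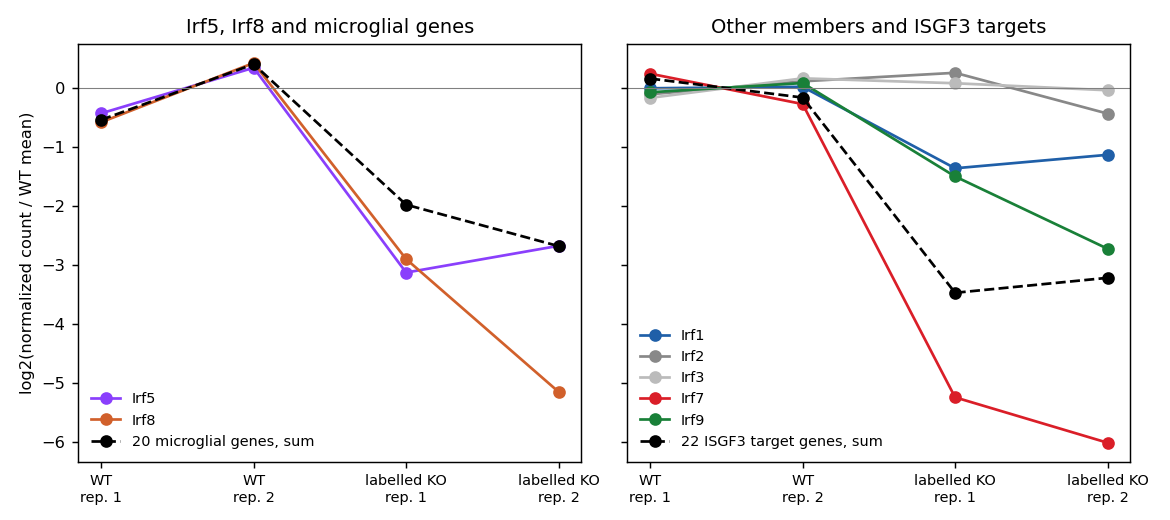
Log2 ratio of each library to the WT mean, for Irf5, Irf8 and the sum of 20 microglial genes (left) and for the other detected members and the sum of 22 ISGF3 target genes (right), with lines that only join the points of a gene. In WT, replicate 2 is higher for Irf5 (1.71 times), Irf8 and the microglial sum (1.92 times), and also for Irf3 (1.26 times), Irf2 (1.16 times), Irf9 (1.11 times) and Irf1 (1.02 times), and it is lower for Irf7 (0.70 times) and the ISGF3 sum (0.80 times).

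Irf4, which is near the limit of detection here, was read only in WT. Irf4 (ENSMUSG00000021356, chromosome 13, 30749226 to 30766976, plus strand) had 8.54 and 6.44 normalized counts in WT, from 8 and 7 reads, against 0 reads in both libraries labelled KO. Set against a floor of 3 reads in each library, it was at least 2.53-fold lower there. The limma log2 fold change of -3.07 (SE 0.73, adjusted p = 0.218) depends on the pseudocount and is no bound. The lymphocyte genes Cd79a and Cd79b were near the same limit, and their part was not tested.

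Compared per length as fragments per kilobase of gene and per unit of sequencing depth (FPKM), the order of the members differed between the groups. In WT, Irf9 had 21.2 FPKM, Irf7 17.4, Irf1 16.5, Irf3 12.03, Irf2 5.68, Irf5 1.26, Irf8 0.884 and Irf4 0.075. The ranges of Irf9 and Irf7, of Irf7 and Irf1, and of Irf5 and Irf8 overlapped between these neighbours. In the libraries labelled KO, Irf3 came first with 11.8 FPKM, followed by Irf1 with 6.75, Irf2 with 5.23 and Irf9 with 5.07, and the last 3 overlapped with their neighbours. Irf7 had 0.347 FPKM there, Irf5 0.166, Irf8 0.0674 and Irf4 0. The deposited lengths count every exon of any transcript, and with the length of the longest coding transcript, a setting chosen after seeing the data, Irf1 and Irf7 changed places in WT, as did Irf5 and Irf8, and Irf2 came before Irf1 in the libraries labelled KO.

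The summed FPKM of the family was 76.0 and 74.2 in WT against 31.4 and 27.4. Irf1, Irf7 and Irf9 made up 76.4% and 70.4% of it in WT, against 42.1% and 40.5% under the KO label. Irf2 and Irf3 made up 21.4% and 25.8% in WT against 57.1% and 58.6%, with similar absolute levels. Irf4, Irf5 and Irf8 together did not pass 3.76% in any library.

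**Figure D4:**
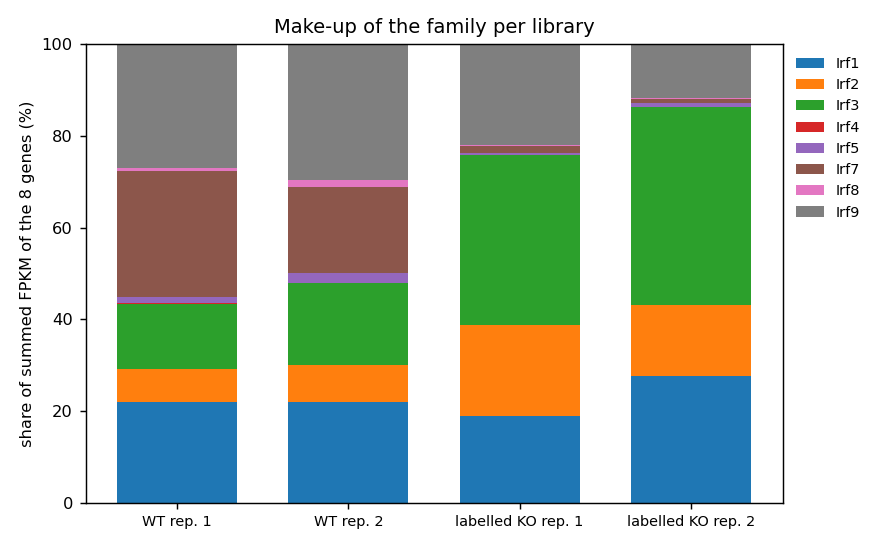
Share of each gene in the summed FPKM of the 8 genes (percent, bars from 0 to 100) in each library. Irf7 takes 27.4% and 18.9% in WT against 1.34% and 0.99% under the KO label, and Irf3 takes 14.3% and 17.7% against 37.2% and 43.2%.

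Genes around the family were then counted by their role, from the signals that reach the IRF proteins to the genes they act on. Of 21 interferon ligand genes sought, Ifnz and Ifnk were listed, at 8.56 normalized counts or fewer. The other 19, with Ifnb1 among them, were not listed and could not be assessed. Of 11 receptor and JAK-STAT genes, 7 were lower and 2 higher without overlap (25.4% and 22.5% of all genes). Their median log2 fold change was -0.94. Ifnar1, the first subunit of the type I interferon receptor, was at 121% of WT (log2 fold change 0.29, limma adjusted p = 0.697), and Ifnar2, its partner, at 48.3% (-1.05, limma adjusted p = 0.266). Ifngr1 and Ifngr2, which form the interferon-gamma receptor, were at 46.2% and 101%, and Ifnlr1, of the interferon-lambda receptor, at 14.2%. Stat2, a partner of Irf9 in ISGF3, is named here after its values were seen. Stat2 had 2503 and 2725 normalized counts in WT against 358 and 323 (log2 fold change -2.94, SE 0.28, limma adjusted p = 0.0777). Stat2 and Irf9 were thus both lower without overlap, and DESeq2 called each of them.

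Of 17 adaptors and kinases that activate Irf3, Irf5 and Irf7, 10 were lower and 0 higher without overlap. Over all genes, 25.4% were lower and 22.5% higher. The median log2 fold change of the 17 was -0.35, and DESeq2 called 2 lower (against 4.62% of all genes). Tbk1, the kinase of Irf3 and Irf7, was at 89.3% of WT and overlapped between the groups. Ikbke, its interferon-inducible relative, had 772 and 588 normalized counts in WT against 185 and 83.8 (log2 fold change -2.42, limma adjusted p = 0.182). Ikbkb was at 96.0% of WT, Myd88, an adaptor of Toll-like receptors, at 48.4% and Ticam1, another such adaptor, at 96.3%.

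Of 9 partners and cofactors of IRF proteins, 5 were lower and 0 higher without overlap (25.4% and 22.5% of all genes). The median log2 fold change of the 9 was -0.49. The Irf2-binding corepressors Irf2bp1 and Irf2bp2 were at 121% and 96.6% of WT and overlapped, and Irf2bpl was at 72.4%. Spi1 (PU.1), the myeloid factor with which Irf8 and Irf4 bind composite sites, had 70.4 and 196 normalized counts in WT against 4.28 and 26.1 (log2 fold change -3.31, SE 1.01, limma adjusted p = 0.284, DESeq2 adjusted p = 0.0269). Its relative Spib had 17.1 and 16.6 against 0 and 0.90. Spi1 is itself a marker of microglia, whose summed level is given above.

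Among genes that ISGF3 is known to drive, 21 of 22 were lower without overlap (25.4% of all genes). Their median log2 fold change was -4.45. DESeq2 called 19 of them lower (4.62% of all genes), and limma and edgeR called 0 at an adjusted p under 0.05. At an unadjusted limma p under 0.05, 21 were lower (9.18% of all genes). Isg15, a ubiquitin-like modifier, was at 2.68% of WT, Ifit1, which binds foreign RNA, at 1.39%, Ifit3 at 4.98% and Mx1, an antiviral GTPase, at 4.82%. Ifit2, the 1 gene that overlapped, had 1765 and 1367 normalized counts in WT against 715 and 1490. The sum of the 22 genes under the KO label was 9.85% of that in WT, between the 2.09% of Irf7 and the 25.2% of Irf9. Of the 22 genes, 16 had a promoter window, and the ISRE core was found in 10 of these (3.99% of all genes with a window).

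Of 17 genes known to respond to interferon-gamma and Irf1, 16 were lower without overlap and 1, Ciita, was higher. Over all genes these shares were 25.4% and 22.5%. The median log2 fold change of the 17 was -2.71. The median was -1.75 without KO replicate 1, -1.98 by edgeR and -1.94 by DESeq2. DESeq2 called 11 of them lower (4.62% of all genes), and limma and edgeR called 0 at an adjusted p under 0.05. At an unadjusted limma p under 0.05, 12 were lower (9.18% of all genes). The guanylate-binding proteins Gbp2, Gbp3, Gbp5 and Gbp7 were at 9.94%, 6.44%, 2.15% and 14.8% of WT, and the GTPase Irgm1 at 26.1%. Ciita, the switch of the MHC class II genes, is named after its values were seen and had 18.1 and 11.0 normalized counts in WT against 22.5 and 30.6 (log2 fold change 0.84, limma adjusted p = 0.615). Their sum was at 30.5% of WT. The ISRE core was found in 9 of the 15 listed genes with a window (3.99% of all genes with a window).

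**Figure D5:**
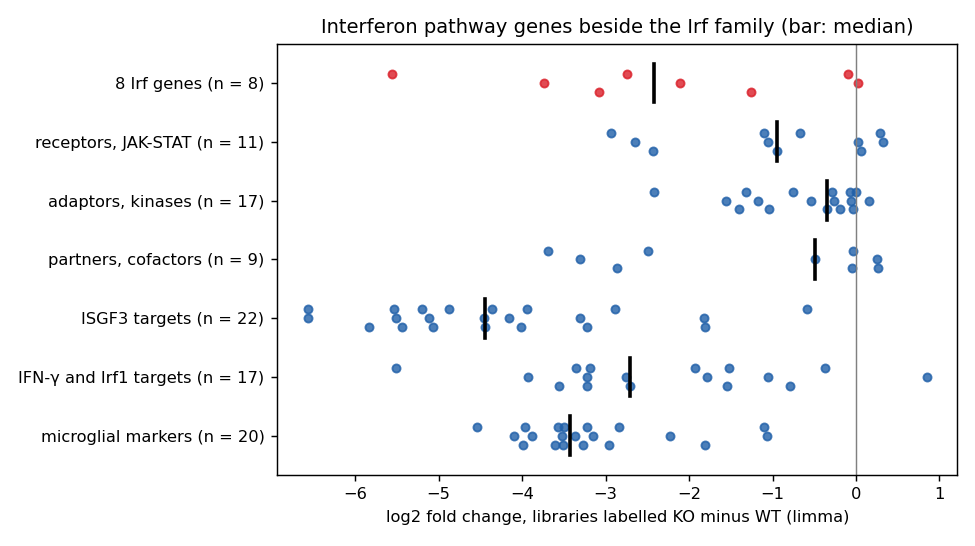
Log2 fold changes (limma, libraries labelled KO minus WT) of the 8 Irf genes and of the tested genes of 6 lists, each point a gene and each bar a median. The medians are -2.42 for the Irf genes, -4.45 for the ISGF3 targets, -3.43 for the microglial markers (-2.60 without WT replicate 2), -2.71 for the interferon-gamma and Irf1 targets (-1.75 without KO replicate 1), -0.94 for the receptors, -0.35 for the adaptors and kinases and -0.49 for the partners and cofactors. By edgeR and DESeq2 the median of the interferon-gamma and Irf1 targets is nearer 0 than that of the Irf genes.

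For each member with a mean of at least 50 normalized counts, the protein-coding genes with the most similar profile over the 4 libraries were sought among 12015 genes, by the Euclidean distance of centred log2 values. The nearest to Irf8 was Ifitm1, at a distance of 0.0991, with 471 and 886 normalized counts in WT against 102 and 24.3, followed by Spon1 and Ndnf. The nearest to Irf9 were Capn5, at 0.103, Tcea3 and Kif5a. The nearest to Irf1 were Mrgpre, at 0.12, Adar and Ccdc163. Irf7 had no gene as near, and its closest were Slc36a2, at 0.724, Gbp10 and Faim2. Irf2 and Irf3, in the midst of the genes with small differences, had Zfp87 at 0.0123 and Thap4 at 0.0305 as their nearest. With 4 libraries such a likeness is a description of these samples.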

How the data were processed

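RNA-seq was analysed from 4 libraries of primary mouse astrocyte cultures, grouped by the genotype in their labels. The submitters' processing notes name the genome build mm10, and the authors aligned paired-end reads to it. The aligner, the counting program, its use of strand and the annotation are not given in the sources used here. The signal values the authors deposited, 1 for each gene in each library, are each a read count divided by a size factor. Divided by what 1 read is worth, 100% of them were whole numbers within 0.01, which gave back the reads. A read was worth 0.901 to 1.07 normalized counts, and floors of 3 reads cover counting error only. The authors' own means, fold changes and p-values were not used.

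The main test was limma 3.58.1 in R 4.3.3 (lmFit, then eBayes with a trend) on log2(normalized count + 1), a scale on which fold changes of low genes are understated. It was run on 22094 genes whose mean was 1 or more, adjusted over all of them by Benjamini-Hochberg. The recovered reads were tested with edgeR 4.0.16 (quasi-likelihood) and DESeq2 1.42.0. The tests were checked on simulated counts. FPKM was computed from the reads, the deposited gene length and the reads on genes. All members were described, listed pathway genes were named in the order of each list, up to 5 per list, with others named only where stated, and neighbours by distance, 3 per member with a mean of at least 50. The members and lists were chosen with earlier results of these data known. Gene positions are those of GENCODE M21, and promoters are from RefSeq. Python 3.11.15, pandas 2.3.3 and matplotlib 3.10.9 served for tables and plots. Other pseudocounts, filters, scalings, tools, a replicate block, and leaving out each library were tried as alternatives.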

Additional observations from a re-analysis of the deposited data

How the results depend on the processing

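The number of members with an adjusted p under 0.05 was 0 by limma and edgeR under every setting, and 5 by DESeq2, which called 1088 of all genes where limma called 0 (3032 at an unadjusted p under 0.05). Over all genes that last count was 1984 by edgeR with a replicate block and 1135 to 4846 without single libraries. Leaving out 1 library at a time gave 0 members at an adjusted p, 2 to 6 at an unadjusted p, 6 to 7 with the libraries labelled KO below WT, and medians of -2.63 to -2.13. Quantile normalization moved the median of all genes from -0.07 to 0.06 and that of the members to -2.19. The members' median was -0.87 on FPKM, where a pseudocount of 1 is large beside the levels of Irf4, Irf5 and Irf8. The sign of Irf3 turned with scaling to equal sums (-0.028), quantile normalization (-0.013), FPKM (-0.026), edgeR (-0.022) and edgeR with a replicate block (-0.018). Without single libraries the log2 fold change ranged from -0.14 to 0.19 for Irf3 and from -0.44 to 0.25 for Irf2. The other 6 members stayed lower in the libraries labelled KO under every setting that tested them, and Irf4 was left out by a mean minimum of 5. The correlation of deviations between libraries with the same number was -0.08 over 22094 genes. No pairing by replicate number was thus seen, but such a correlation cannot exclude one. With a replicate block, limma counted 0 members at an adjusted p and DESeq2 counted 3, where 1043 of 16097 genes (6.48%) passed. Irf1 (DESeq2 adjusted p = 0.224) and Irf5 (0.0629) were the calls lost. With 2 libraries per group, and 4 to 33 reads behind Irf5, Irf7 and Irf8 in the libraries labelled KO, small differences were not detectable at this depth.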
